A study of Mus musculus with 6 samples.

Results

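Variable segments are the interchangeable pieces of the immunoglobulin loci that code for the antigen-binding end of an antibody chain. The counts described here come from spleen samples that the labels describe as leukaemia cells. They are those of the mouse heavy chain locus (Igh, chromosome 12), the kappa light chain locus (Igk, chromosome 6) and the lambda light chain locus (Igl, chromosome 16). A segment was taken as a member when its RefSeq symbol began with Ighv, Igkv or Iglv and it had at least 10 raw counts summed over the 6 libraries. This left 55 of 348 variable segments in the table, of 40808 genes in all: 9 of 183 Igh segments, 43 of 162 Igk segments and the 3 Igl segments. A further 78 segments had 1 to 9 counts and 215 had 0. Because the sum of counts chose the members, it is given as a description. Just inside the minimum, with 10 counts each, were Igkv4-50, Igkv9-120 and Igkv5-37, and just outside it were 5 segments with 9 counts, among them Ighv2-3 and Igkv8-30.

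RNA came from leukaemia cells of the spleen of mice given a bone marrow transplant, per the labels. There were 3 libraries without Dox (replicates 4, 5 and 6) and 3 with Dox (replicates 10, 11 and 12); the labels do not spell out Dox or give its dose or duration, and give no genotype, strain, sex or age of donors or recipients. Nothing in the labels says whether the libraries of a group came from separate animals, so p-values measure the spread between these libraries only. Total counts were 5541486 to 7729988 without Dox and 6498193 to 8725767 with Dox. Y-linked genes had 545 to 801 counts in each library without Dox and 0 in each with Dox, and Xist had 193 to 324 and 3347 to 5669 counts. Each library without Dox thus held both Y-linked and Xist counts. Dox, sex-linked differences and differences in the mix of cells cannot be told apart here. The share of leukaemia cells in each library was not tested. Haemoglobin genes took 8.61% to 9.05% of counts without Dox and 14.1% to 15.9% with Dox.

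An antibody gene is assembled in a developing B cell by joining 1 variable segment to short joining segments (with a diversity segment between them in the heavy chain), and the joined exon is spliced to a constant region. The joined exon is particular to a B cell clone, whereas many clones use the same segment. The recombination enzymes that join these segments also join the T cell receptor genes, and unjoined variable segments can be transcribed as well. The libraries were primed on the poly(A) tail, which in an assembled immunoglobulin mRNA follows the constant region. A count in a variable segment is therefore not a count of antibody mRNAs that carry it, and the 3019 counts of all 348 segments were few beside those of the constant regions.

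The counts were led by the lambda segments Iglv1 and Iglv3, and among kappa segments by Igkv4-51. The sequences below show how alike the counted segments are, since reads from shared stretches cannot be assigned to 1 of them with certainty. They are the first 300 bases of the coding V exon, 5′ to 3′, in GENCODE M21 transcripts (GRCm38), all on the minus strand. Iglv1 lies at chr16:19085022-19085321, Iglv2 at chr16:19260406-19260705 and Iglv3 at chr16:19241231-19241530. Igkv4-51 lies at chr6:69681415-69681714 and Igkv4-58 at chr6:69500263-69500562. Capitals in Iglv2 mark the 9 bases that differ from Iglv1, and capitals in Igkv4-58 the 12 that differ from Igkv4-51.
Iglv1: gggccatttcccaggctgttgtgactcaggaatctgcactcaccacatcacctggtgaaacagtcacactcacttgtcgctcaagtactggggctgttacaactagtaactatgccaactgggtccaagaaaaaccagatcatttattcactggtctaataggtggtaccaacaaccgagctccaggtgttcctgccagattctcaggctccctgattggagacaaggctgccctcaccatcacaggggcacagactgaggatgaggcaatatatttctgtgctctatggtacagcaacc
Iglv2: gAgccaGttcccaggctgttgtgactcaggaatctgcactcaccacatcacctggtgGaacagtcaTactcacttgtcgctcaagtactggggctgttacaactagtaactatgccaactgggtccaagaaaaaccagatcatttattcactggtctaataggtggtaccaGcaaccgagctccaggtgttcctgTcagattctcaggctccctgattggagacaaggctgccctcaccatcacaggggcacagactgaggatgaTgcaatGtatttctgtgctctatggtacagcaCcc
Iglv3: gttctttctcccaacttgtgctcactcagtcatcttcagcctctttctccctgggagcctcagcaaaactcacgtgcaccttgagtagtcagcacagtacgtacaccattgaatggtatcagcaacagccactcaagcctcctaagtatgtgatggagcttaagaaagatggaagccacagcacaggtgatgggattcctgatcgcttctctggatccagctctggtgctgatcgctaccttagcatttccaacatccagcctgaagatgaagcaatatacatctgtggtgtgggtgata
Igkv4-51: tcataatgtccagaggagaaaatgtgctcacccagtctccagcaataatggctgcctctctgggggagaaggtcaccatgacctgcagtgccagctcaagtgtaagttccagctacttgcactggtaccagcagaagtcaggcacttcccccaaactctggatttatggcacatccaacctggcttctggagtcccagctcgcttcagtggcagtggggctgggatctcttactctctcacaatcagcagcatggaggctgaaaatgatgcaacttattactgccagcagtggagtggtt
Igkv4-58: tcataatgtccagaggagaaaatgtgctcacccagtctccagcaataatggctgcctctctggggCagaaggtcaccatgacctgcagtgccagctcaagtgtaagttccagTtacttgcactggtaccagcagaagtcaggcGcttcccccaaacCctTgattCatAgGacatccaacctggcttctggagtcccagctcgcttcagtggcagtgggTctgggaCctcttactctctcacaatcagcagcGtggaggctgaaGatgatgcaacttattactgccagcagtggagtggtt

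Over the whole V exon, Iglv1 and Iglv2 had 97.0% identical bases, with a longest shared stretch of 104 bases in the part shown. Iglv3 had 54.0% identity to Iglv1 and 52.7% to Iglv2. Igkv4-51 and Igkv4-58 had 96.1% identity, with a longest shared stretch of 65 bases in the part shown. Of 942 pairs of members of 1 locus, 14 had V exons with at least 95% identity, and counts of those segments depend on how reads of shared stretches were treated, which is not stated. Of 55 members, 7 were pseudogenes in RefSeq, against 123 of all 348 segments. In RefSeq 1 member, Iglv3, lay within another gene model, the long non-coding RNA gene Gm35545, which had 1, 1 and 6 counts without Dox and 43, 13 and 52 with Dox. The strand setting of the counting is not stated, so reads of Iglv3 and of Gm35545 cannot be told apart where the models overlap. In GENCODE M21 the antisense gene 2010309G21Rik, on the opposite strand, overlaps Iglv1, and reads of the 2 strands there cannot be told apart either.

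The 348 variable segments summed to 505, 333 and 411 counts without Dox, against 333, 803 and 634 with Dox. Their share of all counts was 0.00633% ± 0.00028 without Dox against 0.00776% ± 0.0023 with Dox (SD, n = 3 in each group). The ranges overlapped: replicate 10 with Dox was below all libraries without Dox, and replicates 11 and 12 were above them. No difference beyond the spread of libraries was found (exact two-sided permutation p = 0.4, adjusted p = 0.504 over 29 measures of single libraries; 0.1 is the smallest p that 3 against 3 can give). In normalized CPM (counts scaled to library size with TMM factors) the means were 6.10, 33.9 and 30.9 for Igh, Igk and Igl without Dox, against 9.02, 36.3 and 25.2 with Dox; their sum was not higher with Dox on that scale. Marker sets of cell types differed in how far they moved. The summed normalized CPM of 5 B cell markers was 25.4 to 34.6 without Dox and 1347 to 1485 with Dox, and each of the 5 was detected in each library. That of 5 T cell markers was 1272 to 1335 and 97.9 to 109, and that of 5 plasma cell markers was 235 to 267 and 194 to 220. Neutrophil markers had 42.2 to 57.6 without Dox and 1742 to 1942 with Dox, and macrophage markers, which overlapped, 213 to 285 and 239 to 458. The neutrophil marker Ly6g was at 0 counts in each library without Dox. Plasma cell markers were led in each library by Jchain, and Sdc1, the plasma cell marker CD138, had 150 to 301 counts without Dox and 2 to 58 with Dox. Mzb1 and Prdm1 of the same set went the other way, from 30.0 to 40.4 CPM without Dox to 62.5 to 74.0 with Dox, and from 2.23 to 5.67 CPM to 10.3 to 18.8. In such bulk RNA, fewer cells of a type and less RNA per cell cannot be told apart, and the part of these markers in the segment counts was not tested.

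Without Dox, kappa and lambda segments took similar shares of the counts, whereas the heavy chain share was small and varied more between libraries in proportion. Kappa segments took 45.7%, 46.2% and 51.6% of variable counts (replicates 4, 5 and 6), lambda segments 44.6%, 43.2% and 42.8%, and heavy chain segments 9.70%, 10.5% and 5.60%. With Dox, kappa took 66.4%, 59.9% and 35.0% (replicates 10, 11 and 12), lambda 29.1%, 24.7% and 50.3%, and heavy chain 4.50%, 15.4% and 14.7%. For kappa and for lambda, replicate 12 lay on the other side of the range without Dox from replicates 10 and 11, and lambda led in replicate 12 alone among the libraries with Dox. For the heavy chain, replicate 10 lay below that range and replicates 11 and 12 above it. The exact 95% binomial interval of the lambda share was 24.3% to 34.3% in replicate 10, 21.7% to 27.8% in replicate 11 and 46.4% to 54.3% in replicate 12; such intervals cover counting error only, as reads are not independent molecules. No difference in these shares between groups was found beyond that spread (exact two-sided permutation p = 0.6 for Igh, 0.6 for Igk and 0.4 for Igl, adjusted p = 0.621, 0.621 and 0.504). The difference in kappa share, 5.90 percentage points, changed sign without Dox replicate 10, to -0.399. The leading segment of each locus was also left out (Iglv3, Igkv4-51 and Ighv4-1, of which Iglv3 and Igkv4-51 had most of their counts with Dox). The differences were then 25.3 percentage points for kappa and -35.8 for lambda. Iglv1, with most of its counts without Dox, was kept, so these values follow from which segments were left out.

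**Figure D1:**
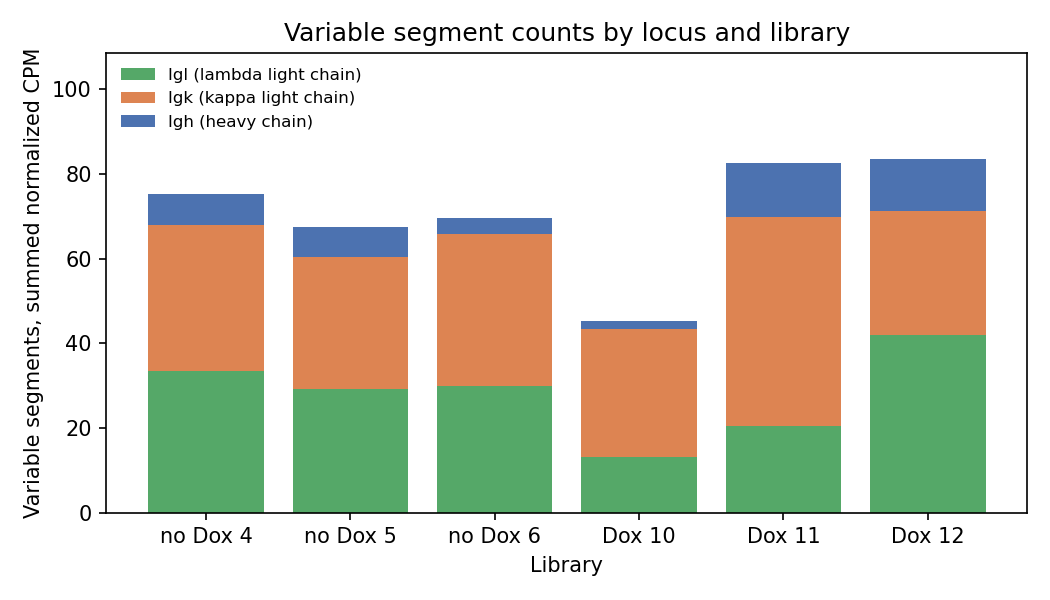
Summed normalized CPM of variable segments (y axis) in each library (x axis), stacked by locus. The 3 bars without Dox are close in height, whereas with Dox that of replicate 10 is the shortest and those of replicates 11 and 12 the tallest of the 6.

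The lambda locus holds 3 variable segments, and the groups differed in which of them was counted. Iglv1 (Entrez gene 16142, chr16:19085017-19085460, GRCm38) had 193, 131 and 152 counts without Dox, against 4, 5 and 0 with Dox. In normalized CPM this was 28.8, 26.5 and 25.8 against 0.544, 0.515 and 0. Each library without Dox stood far above each with Dox, and the 3 without Dox were within a narrow range. Iglv1 was lower with Dox by a log2 fold change of -6.16 ± 0.61 (SE; adjusted p = 3.53e-05, edgeR quasi-likelihood test, Benjamini-Hochberg over 14110 genes).

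Iglv3 (Entrez gene 404743, chr16:19241208-19241679) went the other way, with 14, 5 and 15 counts without Dox and 93, 193 and 258 with Dox. On the normalized scale these were 2.09, 1.01 and 2.54 CPM against 12.7, 19.9 and 34.0 CPM. Each library with Dox stood above each without, and the libraries with Dox differed more among themselves than those without Dox did in Iglv1. The log2 fold change was 3.53 ± 0.52 (SE; edgeR adjusted p = 0.00041).

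Iglv2 (Entrez gene 110612, chr16:19260403-19260844), the near copy of Iglv1, had 18, 8 and 9 counts without Dox and 0, 0 and 61 with Dox. It was absent from replicates 10 and 11 and higher in replicate 12 than in any library without Dox, so the groups overlapped, and it did not pass the low-count filter of the test. A count of 0 allows up to 3 counts, or 0.408 and 0.309 CPM in replicates 10 and 11. Adding the counts of Iglv2 to those of Iglv1, a step chosen after the data were seen, left the summed gene lower with Dox (log2 fold change -3.27, edgeR adjusted p = 0.00999), a smaller change than that of Iglv1 alone, with the 61 Iglv2 counts of replicate 12 included.

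As shares of lambda variable counts, Iglv1 took 85.8%, 91.0% and 86.4% without Dox, and Iglv3 took 95.9%, 97.5% and 80.9% with Dox. The exact 95% binomial intervals of these top shares ran from 80.4% to 95.1% for Iglv1 and from 76.1% to 99.2% for Iglv3 over the 3 libraries of each group. A single segment therefore dominated this locus in each of the 6 libraries, and it was a different one in each group. No difference in the degree of dominance beyond the spread of libraries was found (effective number of segments, the inverse Simpson index, 1.29 ± 0.075 and 1.20 ± 0.22, SD of 3 libraries; exact two-sided permutation p = 0.5, adjusted p = 0.558).

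The order of the locus, from the RefSeq coordinates, is Iglv2, Iglv3, Iglj2 with Iglc2, then Iglv1, Iglj3 with Iglc3 and Iglj1 with Iglc1. Iglc1, the last constant region in this order, had 77.2 ± 10.3 CPM without Dox and 53.3 ± 1.2 with Dox (SD, n = 3 in each group; log2 fold change -0.54 ± 0.18 (SE), edgeR adjusted p = 0.035). Iglc3, between Iglv1 and Iglc1, rose from 15.9 ± 3.7 to 73.3 ± 34.9 CPM (log2 fold change 2.20 ± 0.37 (SE), edgeR adjusted p = 0.00088). Iglc2, the first constant region after Iglv3, was 38.8 ± 8.5 without Dox and 77.4 ± 49.0 CPM with Dox, with 797, 1000 and 159 counts in replicates 10, 11 and 12, and was not called (edgeR adjusted p = 0.125). In replicate 12 Iglc2 had the fewest counts of the libraries with Dox while Iglv3 had the most, so the segment and its nearest constant region did not run in parallel. Across the locus, variable counts per 100 constant region counts were 23.2, 26.6 and 21.1 without Dox, against 5.62, 7.61 and 37.6 with Dox. Replicates 10 and 11 were below the range without Dox and replicate 12 was above it (exact two-sided permutation p = 0.5, adjusted p = 0.558).

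**Figure D2:**
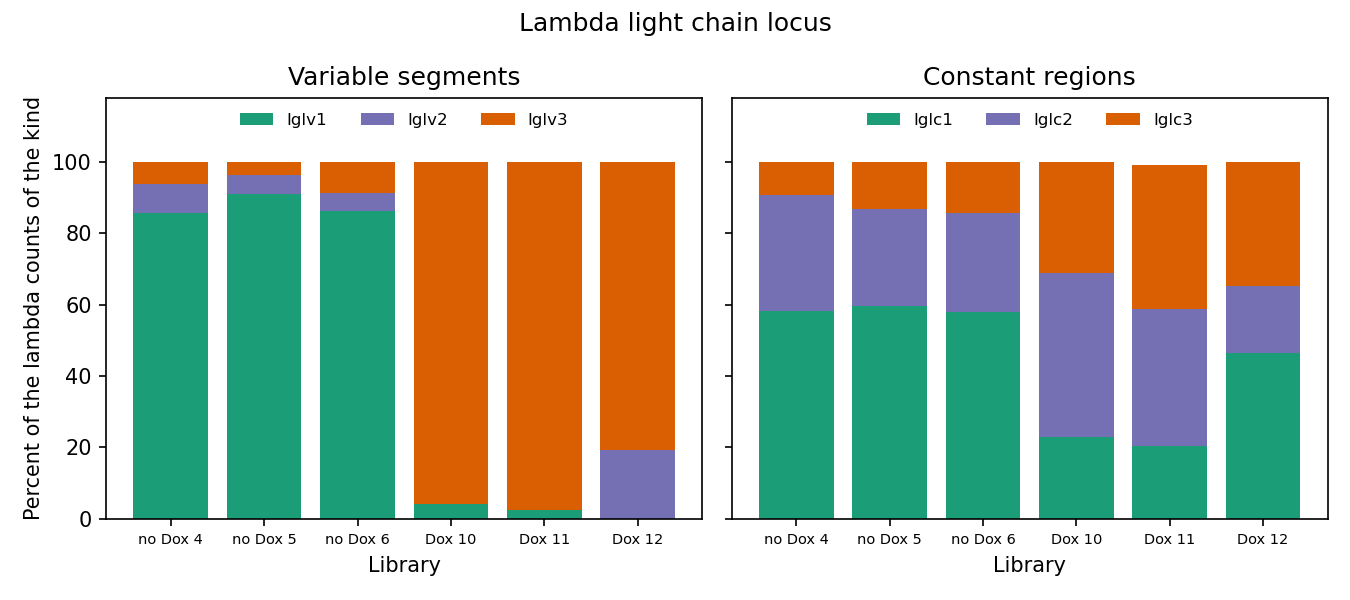
Percent of lambda variable counts from Iglv1, Iglv2 and Iglv3 (left) and percent of lambda constant region counts from Iglc1, Iglc2 and Iglc3 (right) in each library; the pseudogene Iglc4 makes up the remainder in Dox replicate 11. Variable counts change from at least 85.8% Iglv1 without Dox to at least 80.9% Iglv3 with Dox, whereas each constant region keeps a share of at least 9.18% in each library.

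Kappa segments had 231, 154 and 212 counts without Dox and 221, 481 and 222 with Dox, spread over many segments. The number of Igk segments with at least 1 count was 59, 50 and 52 without Dox, against 27, 21 and 21 with Dox. At an equal depth of 154 kappa counts the expected numbers were 51.2, 50 and 47.0 against 23.6, 18.4 and 19.9. The effective number of segments was 24.4, 27.2 and 30.3 without Dox, against 9.58, 10.9 and 13.8 with Dox. On each of these measures the groups did not overlap, and the kappa counts were spread over more segments without Dox (exact two-sided permutation p = 0.1 for each, the lowest attainable, adjusted p = 0.223). The segment with most counts took 12.6%, 8.44% and 8.02% of kappa counts without Dox and 22.2%, 19.1% and 13.1% with Dox, and the 3 leading segments took 22.1% ± 2.7 and 40.1% ± 7.4 (SD, n = 3 in each group; exact two-sided permutation p = 0.1 and adjusted p = 0.223 for both). Over the 43 kappa members alone the effective number differed by -6.30 (Dox minus no Dox) instead of -15.9. The share of the leading segment then differed by 6.002 instead of 8.45 percentage points. The members were chosen by their summed counts in these same libraries, so both values over members are a description and no test of them is given.

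Small counts also made up a smaller share of low counts with Dox. Of all variable segments with 1 to 30 counts, 66.7%, 73.1% and 50.0% had 1 to 3 counts without Dox and 44.8%, 19.0% and 24.1% with Dox. Over all genes of the table the same share was 27.9% to 43.0% without Dox and 15.04% to 16.0% with Dox. This share was thus lower over the whole libraries with Dox, not in variable segments alone. With only segments of 3 or more counts in a library taken as detected, the mean difference in the number of Igk segments (Dox minus no Dox) was -9.67 instead of -30.7 (exact two-sided permutation p = 0.1 for both). Over all loci it was -10.7 instead of -39 (exact two-sided permutation p = 0.2 instead of 0.1). Most of the difference in segments detected was therefore in segments with 1 or 2 counts.

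**Figure D3:**
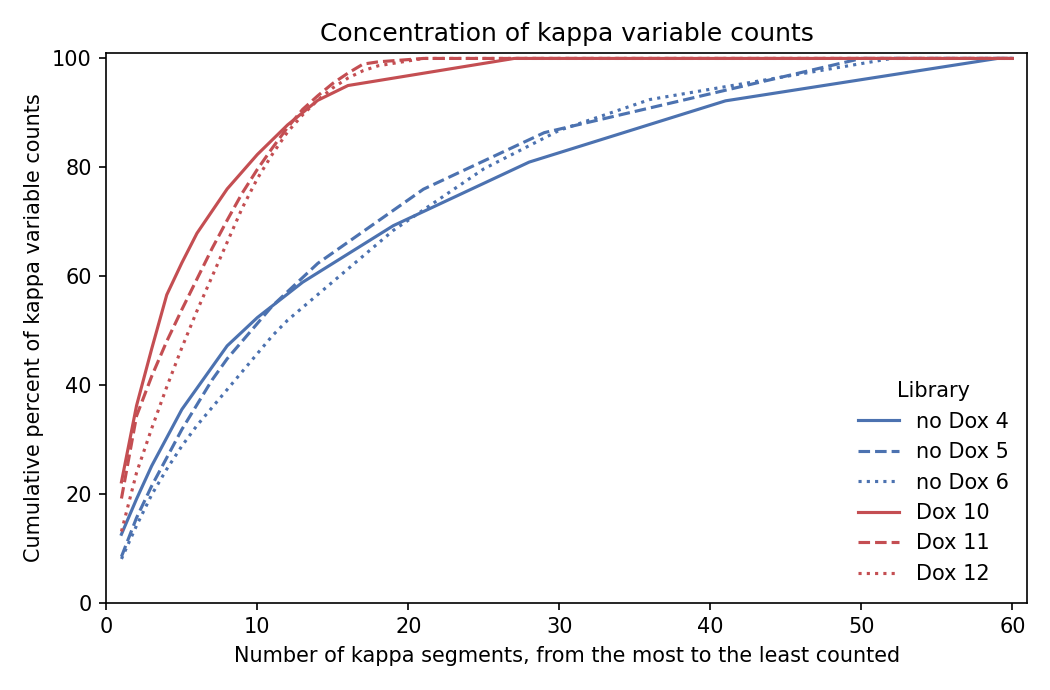
Cumulative percent of kappa variable counts (y axis) against the number of kappa segments, ordered from the most to the least counted (x axis), 1 line per library. The 3 lines with Dox rise faster and end at 21 to 27 segments, whereas those without Dox end at 50 to 59.

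The leading kappa segment differed between the groups. Without Dox it was Igkv3-7 in each library (Entrez gene 108005, chr6:70607437-70608036), with 29, 13 and 17 counts, or 4.33, 2.63 and 2.88 CPM. With Dox Igkv3-7 had 1, 0 and 14 counts, so replicate 12 lay near the level without Dox while replicates 10 and 11 lay far below. The difference was not called (log2 fold change -2.31 ± 1.31 (SE), edgeR adjusted p = 0.178). Without Dox replicate 12 it did, at a log2 fold change of -5.39 and an adjusted p of 0.013.

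With Dox, Igkv4-51 (Entrez gene 619806, chr6:69681406-69681939) led in replicates 10 and 11, and Igkv1-35 in replicate 12. Igkv4-51 had 1, 0 and 0 counts without Dox and 49, 92 and 16 with Dox, or 6.67, 9.47 and 2.11 CPM. Each library with Dox stood above each without, and the log2 fold change was 6.38 ± 1.24 (SE; edgeR adjusted p = 0.0022). Igkv4-51 passed the low-count filter through the libraries with Dox alone. With no such filter the log2 fold change was 6.25 (edgeR adjusted p = 0.00012). As 1 count carries the level without Dox, the ratio of 112 between summed normalized counts has an exact 95% counting interval of 19.8 to 4438. Igkv1-35 (Entrez gene 620105, chr6:70010949-70011673) had 0, 0 and 12 counts without Dox and 23, 0 and 29 with Dox. It was at 0 in libraries of both groups (log2 fold change 1.73 ± 1.72 (SE), edgeR adjusted p = 0.44). Leaving out 1 library gave log2 fold changes of 1.13 to 7.05, the highest without replicate 6 of the group without Dox (edgeR adjusted p = 0.132), and none was called.

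Igkv1-135 (Entrez gene 243420, chr6:67609745-67610508), the member farthest from the constant gene Igkc, had 14, 11 and 13 counts without Dox, or 2.09, 2.23 and 2.20 CPM, and 0 in each library with Dox. Against a floor of 3 counts over the Dox group it was at least 17.8-fold lower with Dox (log2 fold change -6.95 ± 1.54 (SE), edgeR adjusted p = 0.0072). Igkv1-135 passed the low-count filter through the libraries without Dox alone. With no such filter the log2 fold change was -7.03 (edgeR adjusted p = 0.018). With the filter kept and 1 library fewer, the adjusted p of edgeR was 0.057 (without replicate 4 of the group without Dox) and 0.059 (without replicate 5), at log2 fold changes of -7.02 and -7.06. Igkv1-135 was 1 of 8 members seen in all 3 libraries without Dox and in none with Dox; the others were Igkv1-117, Igkv1-110, Igkv10-96, Igkv12-44, Igkv17-127, Igkv3-6 and Igkv9-120, with 10 to 23 counts each.

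Of the 55 members, 6 passed the filter on low counts, through which a segment high in 1 group can pass by that group alone. Iglv1, Igkv4-51 and Igkv1-135 had 10 or more counts in libraries of 1 group only. Iglv3 and Igkv4-51 were higher and Iglv1 and Igkv1-135 lower with Dox at an adjusted p under 0.05, and Igkv3-7 and Igkv1-35 were not called. The 4 calls also held with no low-count filter, but none of the 4 could be tested when 10 counts were required in every library. Of all 14110 genes tested, 45.6% were called, 23.6% higher and 22.1% lower with Dox. The other 49 members were not tested. In normalized CPM the groups did not overlap in 20 of 55 members (36.4%), 5 higher and 15 lower with Dox, against 59.6% of all genes tested. The number called rose to 9 without Dox replicate 12, where Igkv4-73, Igkv4-77, Igkv3-12, Igkv3-7 and Igkv1-117 joined the 4, and to 8 with DESeq2.

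**Figure D4:**
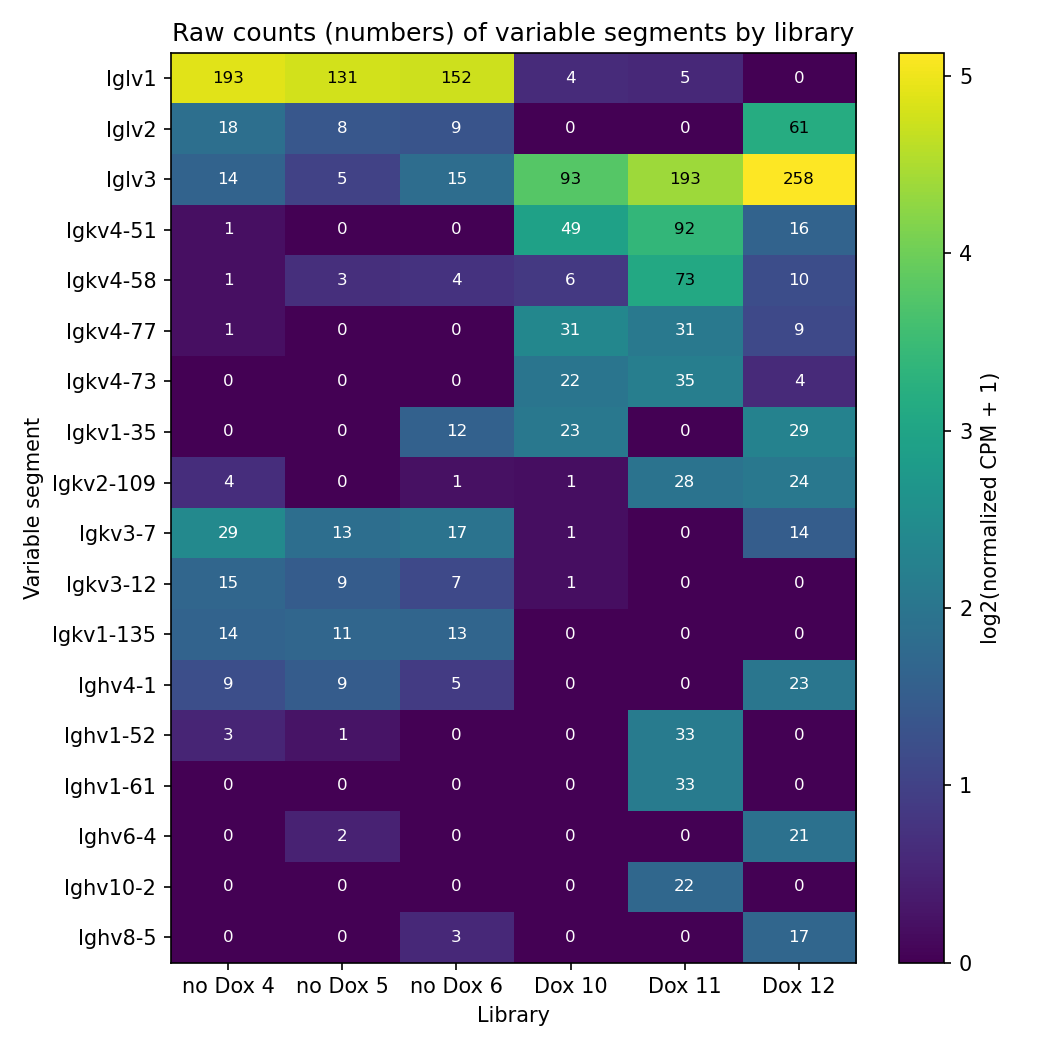
Raw counts (numbers) and log2 of normalized CPM plus 1 (colour) of 18 variable segments (rows) in the 6 libraries (columns). Iglv1 is bright in the 3 libraries without Dox and Iglv3 in the 3 with Dox, while the heavy chain segments other than Ighv4-1 have most of their counts in a single library with Dox.

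Kappa members were grouped by family, the first number of the symbol, a grouping made after the values were seen and given without a test. Family Igkv4 has 33 segments in the table, of which 14 were members, 1026 to 1710 kb from Igkc. Its segments had 22, 17 and 36 counts without Dox and 137, 321 and 85 with Dox. They took 9.52%, 11.04% and 17.0% of kappa counts without Dox and 62.0%, 66.7% and 38.3% with Dox. Within the family the mean CPM was higher with Dox for 11 of 14 members. Igkv4-73 had 0 counts in each library without Dox and 22, 35 and 4 with Dox, at least 14.5-fold higher against a floor of 3 counts over the group without Dox. The pseudogene Igkv4-77 had 1, 0 and 0 counts without Dox and 31, 31 and 9 with Dox. Igkv4-58 had 1, 3 and 4 counts without Dox and 6, 73 and 10 with Dox, so most of its counts came from replicate 11. Not all members of the family followed this pattern: Igkv4-55 had 3, 2 and 5 counts without Dox and 0, 0 and 1 with Dox.

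Family Igkv3, whose 8 members were the nearest to Igkc at 27.8 to 208 kb, had the opposite balance. It took 37.7%, 27.9% and 21.2% of kappa counts without Dox and 9.05%, 10.2% and 6.31% with Dox. Besides Igkv3-7, Igkv3-12 had 15, 9 and 7 counts without Dox and 1, 0 and 0 with Dox, and Igkv3-10 had 9, 8 and 4 against 1, 1 and 0. Igkv3-5 differed from these, with 0, 0 and 1 counts without Dox and 7, 27 and 0 with Dox, although its V exon is 98.1% identical to that of Igkv3-10. Family Igkv1 had 5 members, of which Igkv1-35 alone had a higher mean with Dox. Other families moved as well. Members of Igkv2 had 6 counts without Dox and 67 with Dox, those of Igkv11 had 9 and 44, and those of Igkv10 had 27 and 1. The shares of kappa counts of Igkv2 and Igkv11 overlapped between groups, and those of Igkv10 did not. The members of Igkv3 and Igkv4 occupy separate stretches of the locus. The mean distance of a kappa count from Igkc, however, was 1208 ± 102 kb without Dox and 1321 ± 180 kb with Dox (SD, n = 3 in each group), and the groups overlapped.

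**Figure D5:**
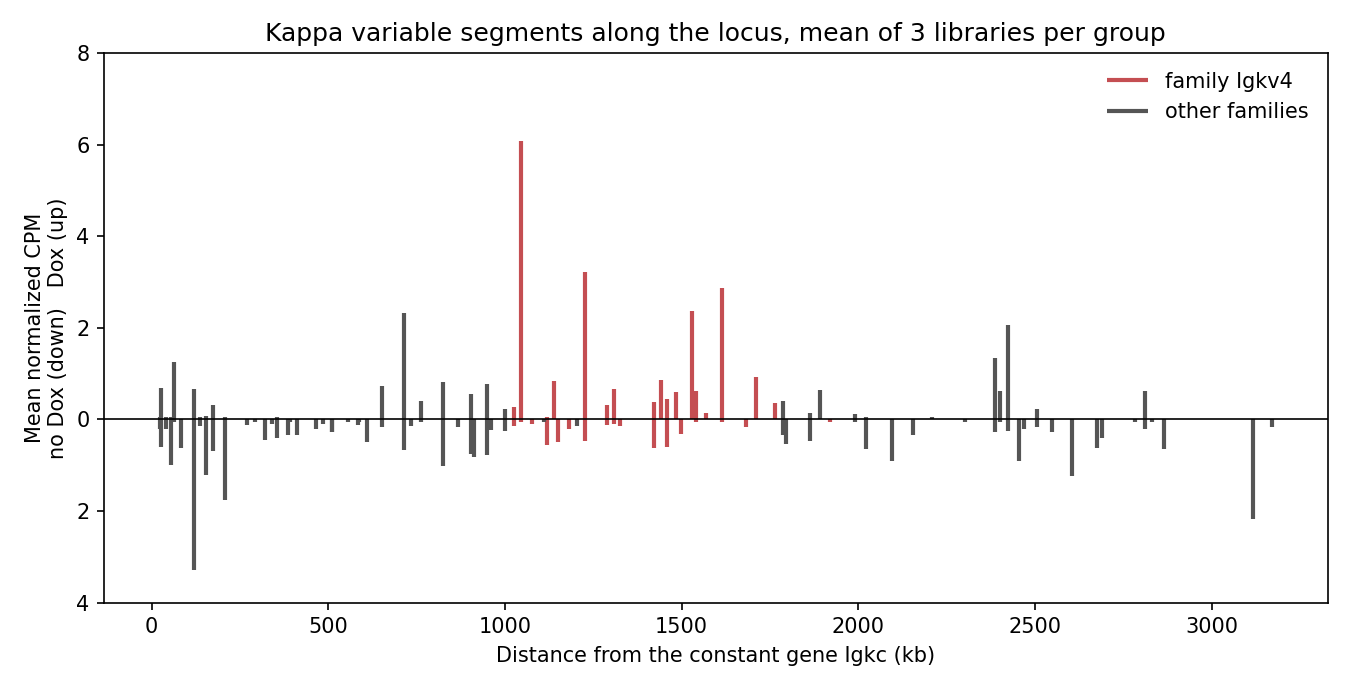
Mean normalized CPM of each kappa variable segment (3 libraries per group) at its distance from the constant gene Igkc in kb, with Dox drawn upwards and without Dox downwards. The tallest line with Dox is Igkv4-51, in the stretch of family Igkv4 (red), and the tallest without Dox is Igkv3-7, close to Igkc.

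Igkc, the single kappa constant region, moved differently from the kappa segments. It fell from 222 ± 21 to 45.2 ± 13.8 CPM (SD, n = 3 in each group; log2 fold change -2.29 ± 0.24 (SE), edgeR adjusted p = 5.44e-05), whereas the kappa segments together had 33.9 ± 2.4 and 36.3 ± 11.5 CPM. Kappa variable counts per 100 Igkc counts were 14.6, 15.8 and 15.5 without Dox, against 102, 89.1 and 58.1 with Dox. Each library with Dox stood well above those without (exact two-sided permutation p = 0.1, the lowest attainable, adjusted p = 0.223). The lambda share of light chain constant counts was 37.2% ± 1.3 without Dox and 80.2% ± 10.2 with Dox, while the lambda share of light chain variable counts was 47.7% ± 2.1 and 39.5% ± 16.8 (SD, n = 3 in each group). Constant regions and variable segments thus gave opposite signs for the difference in lambda share, the second of which was within the spread of libraries (exact two-sided permutation p = 0.4).

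Heavy chain segments had the fewest counts, with 49, 35 and 23 without Dox and 15, 124 and 93 with Dox. The 183 Igh segments had 0.765 ± 0.25 counts per 100 heavy chain constant counts without Dox, against 1.60 ± 0.99 with Dox (SD, n = 3 in each group; exact two-sided permutation p = 0.4, adjusted p = 0.504). At least 1 count was found for 17, 15 and 6 segments without Dox and for 3, 5 and 8 with Dox. Each of the 9 heavy chain members had counts in exactly 1 of the 3 libraries with Dox, and replicate 10 had 0 counts of any of them; a high count in 1 library sufficed to reach the minimum. In replicate 11 Ighv1-52 and Ighv1-61 had 33 counts each, Ighv10-2 had 22 and Ighv1-34 and Ighv9-4 had 18 each. In replicate 12 Ighv4-1 had 23 counts, Ighv6-4 had 21 and Ighv8-5 and Ighv8-12 had 17 each.

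Some of these equal counts fell on near copies and some did not. The V exons of Ighv1-52 and Ighv1-61 had 98.7% identity and those of Ighv8-5 and Ighv8-12 94.2%, whereas those of Ighv1-34 and Ighv9-4 had 67.0%, and these last were the only pair of members with the same counts in each library. Ighv4-1 (Entrez gene 780802, chr12:113948284-113948577) was the heavy chain member seen in all 3 libraries without Dox, with 9, 9 and 5 counts, and it had 0, 0 and 23 with Dox. Its CPM of 1.34 ± 0.49 and 1.01 ± 1.75 (SD, n = 3 in each group) overlapped. The leading heavy chain segment took 18.4% to 26.1% of the locus without Dox and 24.7% to 46.7% with Dox, the last in replicate 10, where it was Ighv1-80 with 7 of 15 counts (exact 95% binomial interval 21.3% to 73.4%). The groups overlapped (exact two-sided permutation p = 0.4, adjusted p = 0.504). The 3 leading heavy chain segments took 40.8%, 51.4% and 65.2% without Dox, against 100%, 71.0% and 65.6% with Dox. Replicate 10 had counts in 3 heavy chain segments only, so that its share is 100% by construction, and replicate 12 with Dox lay next to replicate 6 without. The effective number of heavy chain segments was 8.10 ± 2.81 and 4.27 ± 1.34 (SD of 3 libraries; exact two-sided permutation p = 0.2, adjusted p = 0.341).

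Among all 348 segments, libraries without Dox had more of their usage in common than libraries with Dox. As a description, the usage of all segments that a pair of libraries had in common (the sum over segments of the smaller of their 2 shares) was 66.9% to 73.8% for pairs without Dox and 34.1% to 50.3% for pairs with Dox, and 8.11% to 18.2% for pairs across the groups. For kappa alone these ranges were 49.1% to 61.3%, 24.2% to 42.1% and 9.72% to 23.6%. Of the members, Iglv3 and Igkv4-58 had counts in all 6 libraries. There were 9 members with counts in a single library, which was Dox replicate 11 for 7 of them, and replicates 10 and 12 for 1 each. A segment of a single library could reach the minimum of 10 counts only by a high count there, so these numbers describe the choice of members.

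The companion genes give the setting of these segments. Among heavy chain constant regions, Ighg1, of the IgG1 class, fell from 547 ± 43 to 6.73 ± 2.38 CPM (SD, n = 3 in each group; edgeR adjusted p = 7.44e-07), and Ighe, of the IgE class, had 583 to 740 counts without Dox and 0 with Dox. Ighm, of the IgM class that naive B cells carry, rose from 117 ± 10 to 455 ± 69 CPM (edgeR adjusted p = 1.85e-05), and Ighd, of the IgD class, had 2, 1 and 0 counts without Dox and 146, 149 and 294 with Dox. Of 12 constant regions tested 5 were higher and 4 lower, beside 23.6% higher and 22.1% lower over all genes tested, with a median log2 fold change of 0.85 against 0.07. These background shares apply to each list that follows. All 3 recombination genes were lower with Dox. Rag1, a subunit of the recombinase, went from 181 ± 12 to 4.72 ± 3.17 CPM (edgeR adjusted p = 1.85e-05), and Dntt, the enzyme that adds bases at the joints, had 911, 658 and 969 counts without Dox and 7, 0 and 0 with Dox. All 3 genes of the octamer factors, which act at the promoters of variable segments, were higher with Dox. Pou2f2, the octamer factor abundant in B cells, went from 37.1 ± 7.4 to 324 ± 19 CPM (edgeR adjusted p = 2.92e-06).

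The 16 genes of the B cell list were all higher with Dox, with a median log2 fold change of 5.36, and 12 of 13 T cell genes were lower, with a median of -3.23. Of 10 plasma cell genes tested, Prdm1, Irf4 and Mzb1 were higher and Jchain and Sdc1 lower, with a median of 0.02; 5 of 10 is close to the 45.6% called over all genes. Jchain, which links the chains of secreted IgM and IgA, went from 175 ± 9 to 117 ± 23 CPM (SD, n = 3 in each group; edgeR adjusted p = 0.024). Vpreb3, a chaperone of the B cell lineage, had 23, 6 and 9 counts without Dox and 215, 175 and 140 with Dox, and the surrogate light chain gene Igll1 had 0 in each library. Of 34 joining and diversity segments 7 had at least 10 counts and 0 passed the filter. Igkj5 had 0, 2 and 0 counts without Dox and 20, 12 and 31 with Dox. Igkj4 had 35 counts in Dox replicate 11 and 0 elsewhere, and Ighd2-5 and Ighd2-6 had 17 each in Dox replicate 12 and 0 elsewhere.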

How the data were processed

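Libraries of mRNA 3′ ends (QuantSeq forward kit, per the labels' protocols) from 6 spleen samples were deposited by the authors as 1 table of raw counts per Entrez gene, without pooling. The submitters' processing notes name STAR, featureCounts and the build GRCm38. Versions, annotation, strand setting and the handling of multimapping reads are not given in the sources used here. The 6 columns were matched to samples by title. Of 40808 gene IDs, 96.5% had a symbol in the RefSeq table for GRCm38.p6, which also gave coordinates and gene types; V exon sequences came from GENCODE M21, in which all 55 members were found by symbol.

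Genes were tested with edgeR 4.0.16 (R 4.3.3): filterByExpr (minimum count 10, minimum total 15), TMM factors and the quasi-likelihood F-test over all 6 libraries, with p-values adjusted by the Benjamini-Hochberg method over 14110 genes. The fit was tested on simulated data. Single measures per library used all 348 segments, without the minimum of 10 counts, and exact two-sided permutation tests, adjusted over 29 measures. Depth was 5541486 to 8725767 counts, so that 3 counts, the limit a count of 0 allows, were 0.309 to 0.608 CPM. Alternatives were DESeq2 1.42.0, limma-voom (limma 3.58.1), other scaling, filters and segment sets, and leaving out each library.

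Named were the leading segments of each locus and library, the called members and the listed companion genes; other segments were picked for naming with their values in view. The members and lists were chosen with earlier results of these data known. Promoter sequences of variable segments were not used here. A further gene list is not reported here.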

Additional observations from a re-analysis of the deposited data

How the results depend on the processing

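No paired analysis was possible because replicates 4 to 6 and 10 to 12 have no number in common. The exact tests of 3 against 3 cannot pass 0.05, so for measures of single libraries only the direction was compared. Iglv1, Iglv3 and Igkv4-51 stayed past the threshold, with their direction, in each other fit that tested them (log2 fold changes -6.58 to -5.65, 3.07 to 3.82 and 5.45 to 8.43), including that with no low-count filter; the sum of Iglv1 and Iglv2 gave -3.27. Requiring 10 counts in every library left none of them to test. Igkv1-135 lost its call without replicate 4 or 5 of the group without Dox (log2 fold changes of -7.02 and -7.06, as large as with all libraries; adjusted p up to 0.059), and Igkv3-7 gained one without Dox replicate 12. The number of segments called was 4, but 8 with DESeq2, where 23 were tested, and 0 under that stricter filter, by which no member was tested; leaving out 1 library in turn gave 3 to 9, the highest without Dox replicate 12. The number of all genes called was 4794 to 7025 when 1 library was left out.

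Of the differences in percent of all counts (Dox minus no Dox), that of all variable segments was 0.00143, ran from 0.000708 to 0.00275 when 1 library was left out (the lowest without Dox replicate 11, the highest without Dox replicate 10), and reversed to -0.00149 without the leading segment of each locus (Iglv3, Igkv4-51 and Ighv4-1). Iglv3 and Igkv4-51 were the members called higher with Dox, and Iglv1, called lower, was kept, so the sign change follows from which segments were left out. The same holds for the locus shares, whose differences became 25.3 percentage points for Igk and -35.8 for Igl instead of 5.90 and -8.84. That of lambda segments was near 0 and reversed to 0.000256 when haemoglobin and mitochondrial genes were left out of the total, and ran from -0.000877 to 0.00063 when 1 library was left out, with 4 of 6 reversed. The difference in kappa share of variable counts ran from -0.399 to 15.3 percentage points when 1 library was left out, the lowest without Dox replicate 10, and that in lambda share from -16.6 to -3.82, the former without Dox replicate 12 and the latter without Dox replicate 11. Counting only segments with 3 or more counts reduced the difference in Igk segments detected from -30.7 to -9.67 and that over all loci from -39 to -10.7, and members alone reduced that in effective number of Igk segments from -15.9 to -6.30. Members alone gave no heavy chain dominance, since Dox replicate 10 had 0 counts of them. Depth limits the heavy chain most, where 15 to 124 counts per library were spread over 183 segments.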
